A study of Homo sapiens with 12 samples.

Results

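The 9 genes described here encode the chaperones and proteases that keep proteins folded inside mitochondria: *HSPD1*, *HSPE1*, *HSPA9*, *TRAP1*, *LONP1*, *CLPP*, *CLPX*, *YME1L1* and *HTRA2*. They were chosen by symbol as genes commonly read for the mitochondrial unfolded protein response, and all 9 were found among the 43236 gene symbols of the count tables. MNNG/HOS, a single human osteosarcoma cell line derived from HOS by chemical transformation, was given the solvent DMSO or 300 nM NXP800, an oral small molecule, for 6 h or for 24 h. RNA-seq was performed on 3 replicate libraries of each of the 4 groups. NXP800 was compared with DMSO within each time point, to ask whether transcripts of this response moved with the treatment. The libraries held 30810614 to 31947656 counts on genes. The p-values measure the spread between these libraries, since the labels do not say whether replicates came from separate cultures. Reads outside annotated genes made up 6.66 to 8.14% at 6 h but 2.73 to 3.67% at 24 h, so values at the 2 times also differ in this respect. Of 8 mesenchymal and osteoblast markers, 6 averaged at least 1 CPM (counts scaled to the library size) with a sum of 3872 to 6855 CPM, while *COL1A2* and *ALPL* did not reach 1 CPM. No marker of 5 for blood or 3 for endothelium averaged 1 CPM, and the 6 epithelial markers summed to 6.29 to 12.4 CPM. Some markers moved with treatment: at 24 h the epithelial *EPCAM* rose from 5.78 ± 0.0919 to 10.1 ± 0.0600 CPM (SD, n = 3). Mesenchymal markers went both ways. At 24 h *SPARC* fell by 2.02, *TWIST1* by 1.07, *COL1A1* by 0.76 and *VIM* by 0.48 on the log2 scale. At the same time *RUNX2* was higher by 0.36, while *CDH2* had 0.08 with overlapping groups (adjusted p = 0.455, edgeR's quasi-likelihood test). At 6 h *RUNX2* was higher by 0.71 and *CDH2* by 0.835. The part of these marker changes in the changes described here was not tested.

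Most mitochondrial proteins are made in the cytosol and threaded unfolded into the organelle, where mtHSP70, encoded by *HSPA9*, pulls them in. They then fold with HSP60 and its lid HSP10, encoded by *HSPD1* and *HSPE1*, or are degraded by the matrix proteases LONP1 and CLPXP. When misfolded proteins build up in mitochondria, nuclear genes for these chaperones and proteases are transcribed more, and in mammalian cells this response is closely tied to the integrated stress response and the transcription factors ATF4, CHOP and ATF5.

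The 9 transcripts did not move as a block. *HSPA9* and *LONP1* rose at both times, to 1.43- to 2.00-fold of DMSO. *HSPD1*, *HSPE1*, *TRAP1*, *CLPP* and *HTRA2* fell at both times, *HSPE1* the most. *CLPX* and *YME1L1* stayed within 0.16 log2 units of DMSO at either time. At 6 h, 7 of the 9 passed an adjusted p of 0.05 in edgeR's quasi-likelihood test (Benjamini-Hochberg adjustment over 15979 tested genes), where 52.8% of all tested genes did. Of these, 2 were higher, against 25.0% of all tested genes, and 5 were lower, against 27.8%. At 24 h, 8 of the 9 passed, against 56.0% of all tested genes. Here 3 were higher, against 27.5%, and 5 were lower, against 28.6%. The median log2 fold change of the 9 was -0.26 at 6 h and -0.33 at 24 h, and that of all tested genes was -0.05 and close to 0 (-0.003).

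**Figure D1:**
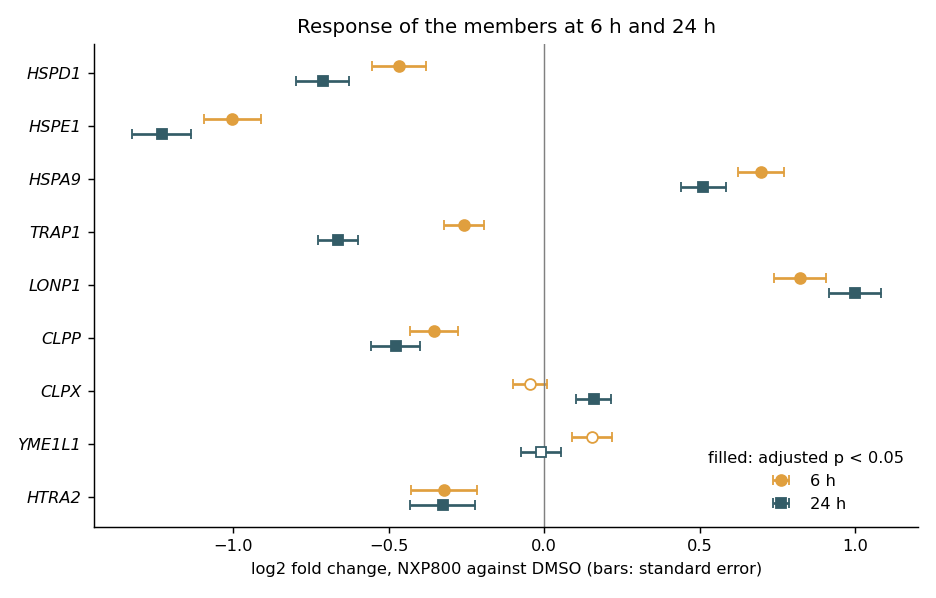
Log2 fold change of NXP800 against DMSO (x axis) for each of the 9 genes (y axis) at 6 h (circles) and 24 h (squares). Bars are standard errors of the fit, and filled symbols mark an adjusted p below 0.05. *HSPA9* and *LONP1* lie to the right of 0 at both times, and *HSPE1* lies farthest to the left with -1.002 and -1.23.

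Windows around the start sites of *HSPD1*, *HSPE1*, *HSPA9* and *LONP1* are shown because those of the chaperonin pair overlap on opposite strands and because they hold different motifs. *HSPD1* and *HSPE1* lie head to head on chromosome 2, *HSPD1* at chr2:197486584-197500274 on the minus strand and *HSPE1* at chr2:197500379-197503449 on the plus strand of GRCh38.p14. RefSeq start windows, 250 bases before to 50 bases after an annotated start, were found for 7 of the 9 genes (10 windows). The windows below are the outer *HSPD1* window chr2:197500225-197500524 and the inner *HSPD1* window chr2:197499791-197500090 (both minus), the *HSPE1* window chr2:197500129-197500428 (plus), the *HSPA9* window chr5:138575352-138575651 (minus) and the *LONP1* windows chr19:5720097-5720396 and chr19:5720403-5720702 (both minus). They are written 5′ to 3′ on the strand of the gene. The outer *HSPD1* window overlaps the *HSPE1* window, and the inner one lies inside the annotated span of *HSPD1*, downstream of its outer start. Capitals mark the heat shock element in the inner *HSPD1* window, the E-box CACGTG in the outer *HSPD1* window, *HSPE1*, *HSPA9* and the first *LONP1* window, and the NRF1 core GCATGCGC in the second *LONP1* window.
HSPD1, outer window: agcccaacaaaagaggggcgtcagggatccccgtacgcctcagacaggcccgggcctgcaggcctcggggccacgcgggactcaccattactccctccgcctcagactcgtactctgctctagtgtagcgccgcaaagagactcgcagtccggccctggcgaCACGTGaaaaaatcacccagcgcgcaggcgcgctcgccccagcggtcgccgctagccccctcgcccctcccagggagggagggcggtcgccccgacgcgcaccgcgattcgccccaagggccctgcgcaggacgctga
HSPD1, inner window: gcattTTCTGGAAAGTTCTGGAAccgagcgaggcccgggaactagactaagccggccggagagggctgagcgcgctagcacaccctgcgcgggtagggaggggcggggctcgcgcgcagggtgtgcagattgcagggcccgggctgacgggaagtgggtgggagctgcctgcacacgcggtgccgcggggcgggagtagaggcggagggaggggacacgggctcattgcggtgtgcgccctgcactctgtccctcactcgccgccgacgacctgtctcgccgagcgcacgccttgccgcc
HSPE1: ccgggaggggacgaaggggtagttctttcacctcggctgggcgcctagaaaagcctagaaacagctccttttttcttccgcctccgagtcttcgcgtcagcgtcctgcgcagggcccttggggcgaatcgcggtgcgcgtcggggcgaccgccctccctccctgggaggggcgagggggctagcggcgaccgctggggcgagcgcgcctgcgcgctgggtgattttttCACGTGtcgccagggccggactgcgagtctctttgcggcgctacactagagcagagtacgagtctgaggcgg
HSPA9: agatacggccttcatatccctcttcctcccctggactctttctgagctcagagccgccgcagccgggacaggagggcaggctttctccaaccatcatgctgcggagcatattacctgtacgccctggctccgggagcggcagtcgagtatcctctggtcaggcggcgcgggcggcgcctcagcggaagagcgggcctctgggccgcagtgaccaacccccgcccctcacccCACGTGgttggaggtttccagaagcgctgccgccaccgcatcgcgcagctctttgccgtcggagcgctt
LONP1, window with E-boxes: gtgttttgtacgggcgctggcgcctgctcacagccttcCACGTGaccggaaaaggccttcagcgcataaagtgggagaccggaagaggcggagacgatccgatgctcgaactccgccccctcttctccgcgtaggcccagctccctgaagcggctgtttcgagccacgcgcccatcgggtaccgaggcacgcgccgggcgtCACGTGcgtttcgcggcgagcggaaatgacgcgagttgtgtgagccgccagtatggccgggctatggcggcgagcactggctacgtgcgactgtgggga
LONP1, window with NRF1 cores: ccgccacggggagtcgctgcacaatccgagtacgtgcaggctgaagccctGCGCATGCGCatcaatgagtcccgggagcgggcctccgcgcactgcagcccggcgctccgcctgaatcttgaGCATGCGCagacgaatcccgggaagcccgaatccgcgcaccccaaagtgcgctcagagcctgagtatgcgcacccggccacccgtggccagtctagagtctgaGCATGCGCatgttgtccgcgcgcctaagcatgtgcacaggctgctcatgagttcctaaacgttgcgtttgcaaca

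The heat shock element, the sequence that HSF1 binds, was searched on both strands as 3 units of GAA and TTC in turn with any 2 bases between units. In the inner *HSPD1* window it matched in overlapping positions, 245 and 240 bases before the start of that window's transcript (chr2:197500068-197500085), and 0.49% of 35116 RefSeq windows held such a match. None of the other windows of these genes held it. The 2-unit form, GAANNTTC or TTCNNGAA, was also present in the *HSPA9* window across its start, and 13.5% of all windows held it. The E-box upstream of *HSPE1* is at chr2:197500357-197500362, and the outer *HSPD1* window holds the same 6 bases on the opposite strand. E-boxes were present in 7.26% of windows. The NRF1 core, present in 3.05% of windows, matched 4 times in the second *LONP1* window, with the pair nearest its 5′ end overlapping. The composite site of C/EBP and ATF factors, TGATGNAA, was in 3.62% of all windows and in none of these 10. These matches describe letters in a short window and are not binding sites measured in these cells.

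Of the chaperones, *HSPD1* encodes the barrel of the chaperonin. It had 1374, 1262 and 1311 CPM in the DMSO libraries at 6 h and 965, 921 and 969 CPM in NXP800. All treated libraries lay below all controls, with a log2 fold change of -0.47 ± 0.09 (SE; adjusted p = 0.000254, edgeR). At 24 h the DMSO libraries had 1147, 1067 and 1347 CPM and the NXP800 libraries 732, 661 and 781 CPM, again without overlap (-0.71 ± 0.09, adjusted p = 3.22e-06, edgeR). The change at 24 h minus that at 6 h was -0.25 (adjusted p = 0.152, edgeR). This difference passed when replicate numbers were kept as a block (adjusted p = 0.0121, edgeR), and without a block it was -0.15 when DMSO replicate 3 of 24 h was left out (adjusted p = 0.382, edgeR).

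*HSPE1*, the lid that closes the chaperonin, fell most. It had 24.5, 25.6 and 25.6 CPM in DMSO at 6 h and 11.5, 13.1 and 13.1 CPM in NXP800 (-1.002 ± 0.09, adjusted p = 2.05e-07, edgeR). At 24 h the values were 17.6, 18.4 and 21.2 CPM in DMSO against 7.86, 7.74 and 8.77 CPM in NXP800 (-1.23 ± 0.10, adjusted p = 2.45e-08, edgeR). Controls and treated libraries were apart at both times. The level of *HSPE1* rests on 238 to 843 counts per library and cannot be set beside that of other genes. Its exons share 192 bases with the readthrough gene *HSPE1-MOB4*, which had 0 counts in every library, as *MOB4* had 0 to 1. In GENCODE 65.5% of the 557 bases of the main *HSPE1* transcript are free of other genes. The overlap setting of the counting is not given, so reads on shared exons may have been left out as ambiguous. In that case the fold change of *HSPE1* and its ratio to *HSPD1* below rest on the remaining reads, which was not tested. RefSeq also lists 28 pseudogenes of *HSPE1* and 22 of *HSPD1*, none of which is in the count tables, and reads that match several places were not counted.

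HSP60 and HSP10 work as a complex, so the ratio of their counts was taken within each library, where scaling between libraries plays no part. The size of this ratio depends on how reads of *HSPE1* were counted and is not a ratio of transcript numbers, so only its change between groups is compared. *HSPD1* counts were 49.3 to 56.2 times those of *HSPE1* in DMSO at 6 h and 70.2 to 83.6 times in NXP800. At 24 h they were 58.1 to 65.0 times in DMSO and 85.4 to 93.1 times in NXP800. The ratio was therefore 1.45-fold higher at 6 h and 1.43-fold higher at 24 h, with no overlap of groups (exact two-sided permutation test, p = 0.1 at each time, the smallest that 3 against 3 libraries allow).

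*HSPA9*, at chr5:138553756-138575401, moved the other way from the chaperonin. The DMSO libraries at 6 h had 910, 864 and 830 CPM, and NXP800 had 1452, 1391 and 1380 CPM (0.70 ± 0.07, adjusted p = 8.48e-07, edgeR). At 24 h DMSO had 750, 700 and 708 CPM and NXP800 had 1094, 1059 and 924 CPM (0.51 ± 0.07, adjusted p = 1.77e-05, edgeR). The treated libraries were above the controls at both times. In DMSO at 6 h *HSPA9* had 0.633 to 0.685 counts for each count of *HSPD1*, and 1.42 to 1.51 in NXP800. At 24 h this ratio was 0.526 to 0.656 in DMSO and 1.18 to 1.60 in NXP800. The order of the counts of these 2 genes was thus turned in every treated library. This pair was chosen after its values were seen and was not tested.

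*TRAP1*, the HSP90 of mitochondria, at chr16:3658037-3717524, had 221, 225 and 209 CPM in DMSO at 6 h and 186, 190 and 172 CPM in NXP800 (-0.26 ± 0.06, adjusted p = 0.00288, edgeR). At 24 h it had 246, 259 and 249 CPM in DMSO and 158, 149 and 170 CPM in NXP800 (-0.66 ± 0.06, adjusted p = 2.78e-07, edgeR). Groups did not overlap at either time, and *TRAP1* was the only one of the 9 whose response differed between the times in the test without a block (-0.40 ± 0.09, adjusted p = 0.00378, edgeR). Among all tested genes, 25.8% passed this test and 13.8% passed it with a lower value at 24 h. Between 6 h and 24 h the mean of *TRAP1* went from 218 to 251 CPM in DMSO and from 183 to 159 CPM in NXP800. The libraries of these times also differed in reads outside annotated genes, and the part of this in the levels was not tested. *DNASE1* on the opposite strand covers 28.5% of the exon bases of *TRAP1* in GENCODE, and the strand setting of the counting is not given in the sources used here. *DNASE1* itself had 197 to 432 counts per library.

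**Figure D2:**
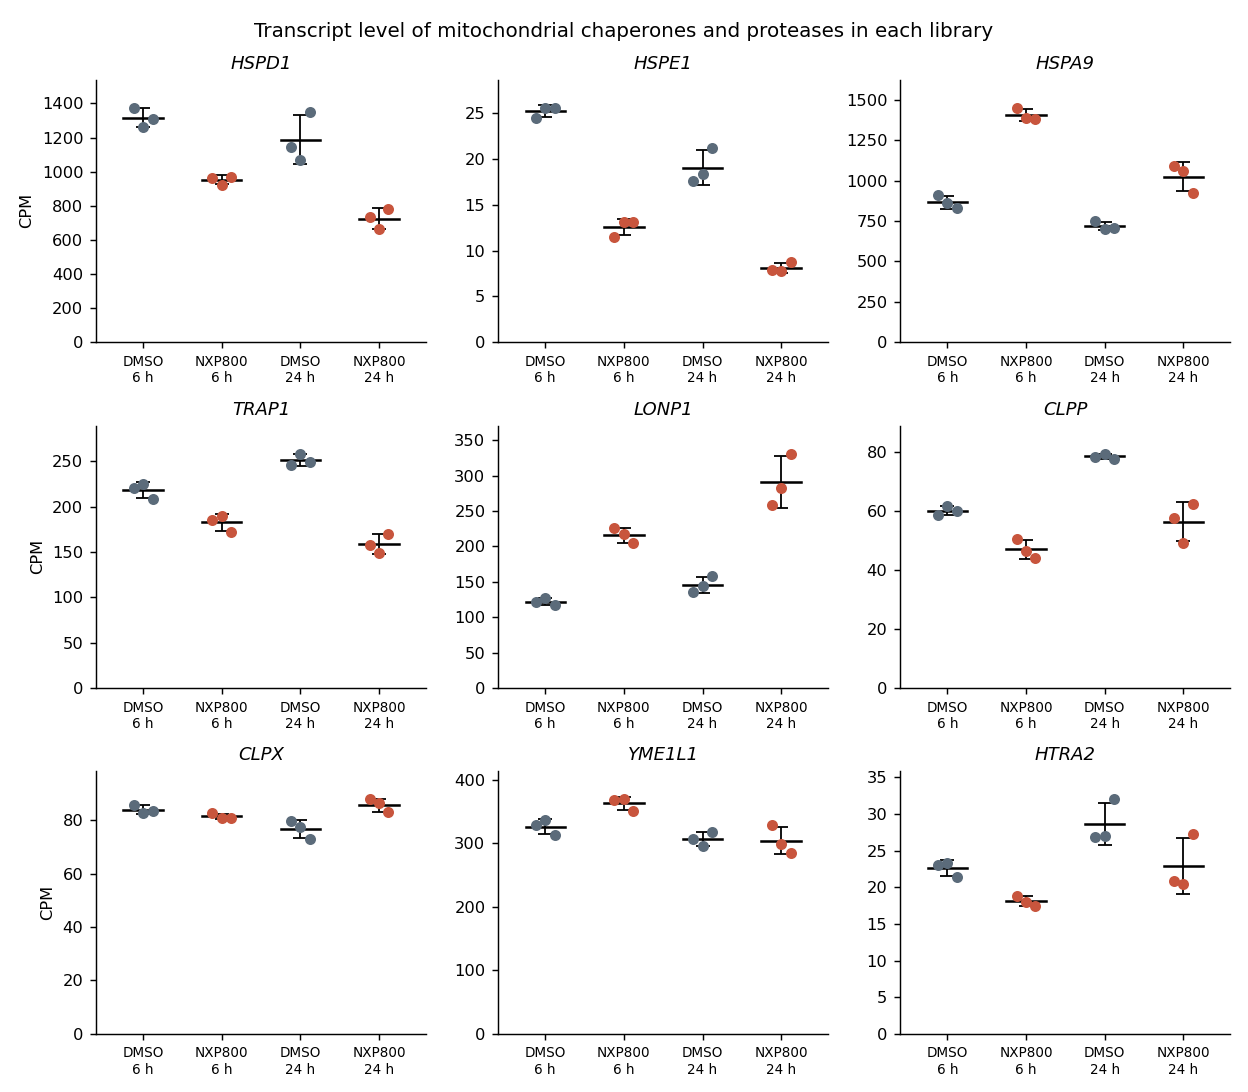
CPM (y axis, from 0) of each of the 9 genes in the 12 libraries, by treatment and time (x axis), with DMSO in grey and NXP800 in red. Points are libraries, and the bar and whiskers are the mean and SD of 3. The *LONP1* points of NXP800 lie above those of DMSO at both times (205 to 331 against 118 to 158 CPM), and those of *HSPE1* lie below.

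Of the proteases, *LONP1*, an ATP-driven matrix protease that removes oxidised and misfolded proteins, at chr19:5691834-5720452, rose most. It had 121, 127 and 118 CPM in DMSO at 6 h against 226, 217 and 205 CPM in NXP800 (0.82 ± 0.08, adjusted p = 6.53e-07, edgeR). At 24 h DMSO had 135, 144 and 158 CPM and NXP800 had 259, 283 and 331 CPM (1.00 ± 0.08, adjusted p = 5.59e-08, edgeR). The groups were apart at both times. The difference between the responses was 0.18 (adjusted p = 0.299, edgeR) and passed only with the replicate block (adjusted p = 0.0485, edgeR). Without a block it was 0.07 when NXP800 replicate 3 of 24 h was left out (adjusted p = 0.654, edgeR).

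*CLPP*, the peptidase of the CLPXP complex, at chr19:6361531-6370242, fell. It had 58.6, 61.8 and 60.1 CPM in DMSO at 6 h and 50.6, 46.4 and 44.2 CPM in NXP800 (-0.35 ± 0.08, adjusted p = 0.00123, edgeR). At 24 h it had 78.3, 79.5 and 77.8 CPM in DMSO and 57.7, 49.3 and 62.3 CPM in NXP800 (-0.48 ± 0.08, adjusted p = 6.94e-05, edgeR). No treated library reached the lowest control of its time.

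*CLPX*, the unfoldase that feeds CLPP, at chr15:65148219-65185342, changed little. At 6 h it had 85.8, 82.6 and 83.5 CPM in DMSO and 82.6, 80.9 and 80.7 CPM in NXP800, and the log2 fold change was -0.04 ± 0.06 (adjusted p = 0.52, edgeR). At 24 h it had 79.7, 77.3 and 72.9 CPM in DMSO and 87.7, 86.2 and 83.0 CPM in NXP800, a rise of 0.16 ± 0.06 (adjusted p = 0.0218, edgeR). That call was lost without DMSO replicate 3 of 24 h (adjusted p = 0.105, edgeR) or NXP800 replicate 1 of 24 h (adjusted p = 0.0657, edgeR). The difference between the responses was 0.20 (adjusted p = 0.0665, edgeR; 0.0179 with the replicate block).

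The 2 subunits of CLPXP thus moved apart within each library. *CLPX* had 1.34 to 1.46 counts per count of *CLPP* in DMSO at 6 h and 1.63 to 1.82 in NXP800. At 24 h the ratio was 0.937 to 1.02 in DMSO and 1.33 to 1.75 in NXP800. The shift was 1.24-fold at 6 h and 1.56-fold at 24 h (exact two-sided permutation test, p = 0.1 each). Between the matrix proteases, the ratio of *LONP1* to *CLPP* went from 1.96 to 2.07 in DMSO to 4.46 to 4.68 in NXP800 at 6 h, a 2.26-fold shift. At 24 h it went from 1.72 to 2.03 in DMSO to 4.49 to 5.74 in NXP800, a 2.79-fold shift (exact two-sided permutation test, p = 0.1 each).

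**Figure D3:**
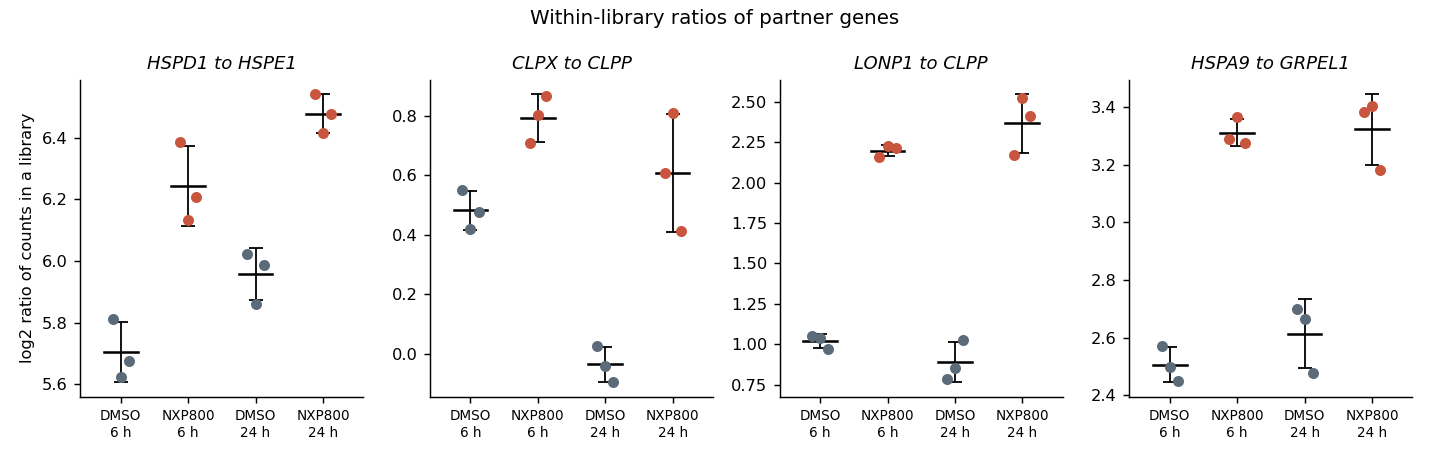
Log2 ratio of the counts of 2 genes in the same library (y axis) by treatment and time (x axis), for 4 pairs, with the mean and SD of 3 libraries and y axes that do not start at 0. In each panel and at each time all 3 NXP800 libraries (red) lie above the 3 DMSO libraries (grey).

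*YME1L1*, an inner membrane protease that faces the intermembrane space, at chr10:27110111-27154384, had 328, 336 and 313 CPM in DMSO at 6 h and 369, 369 and 351 CPM in NXP800. These groups did not overlap, yet the log2 fold change of 0.16 ± 0.06 missed the threshold (adjusted p = 0.0508, edgeR). It passed with the replicate block (adjusted p = 0.0137, edgeR) and in DESeq2 (adjusted p = 0.0249). It also passed when any 1 of the 3 NXP800 libraries of 24 h was left out (adjusted p = 0.0177 to 0.0432, edgeR). It did not pass without any 1 of the 6 libraries of 6 h (adjusted p = 0.0544 to 0.159, edgeR), without any 1 of the DMSO libraries of 24 h (adjusted p = 0.0563 to 0.0622, edgeR) or with no filter on low counts (adjusted p = 0.113, edgeR). At 24 h DMSO had 306, 295 and 318 CPM and NXP800 had 328, 300 and 286 CPM, with overlapping groups and a log2 fold change of -0.01 ± 0.06 (adjusted p = 0.911, edgeR).

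*HTRA2*, a serine protease of the intermembrane space that promotes apoptosis once released, at chr2:74529405-74533556, fell at both times. At 6 h it had 23.1, 23.4 and 21.4 CPM in DMSO and 18.8, 18.1 and 17.5 CPM in NXP800 (-0.32 ± 0.11, adjusted p = 0.0182, edgeR). At 24 h it had 26.9, 27.1 and 32.0 CPM in DMSO and 20.9, 20.4 and 27.2 CPM in NXP800 (-0.33 ± 0.10, adjusted p = 0.0143, edgeR), and replicate 3 of NXP800 lay among the controls. Both calls were lost when single libraries were left out. At 6 h these were DMSO replicates 1 and 2 and NXP800 replicate 3 (adjusted p = 0.0522 to 0.0598, edgeR). At 24 h these were DMSO replicate 3 and NXP800 replicates 1 and 2 (adjusted p = 0.0656 to 0.102, edgeR). *LOXL3* and *AUP1* on the other strand cover 32.3% of the exon bases of *HTRA2*, and *AUP1* had 4784 to 6983 counts per library.

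Levels were compared between genes as CPM per kilobase of the main transcript, without *HSPE1*. *TRAP1* and *HTRA2* were kept at full length, though 61.0% and 66.6% of their main transcript bases are free of other genes in GENCODE. Their places in the order depend on how reads on the other bases were counted. In DMSO at 6 h the order was *HSPD1* (586 ± 24.9, SD, n = 3), *HSPA9* (197 ± 9.16), *TRAP1* (98.2 ± 3.85), *YME1L1* (77.8 ± 2.80), *LONP1* (39.5 ± 1.50), *CLPP* (25.0 ± 0.668), *CLPX* (17.9 ± 0.359) and *HTRA2* (12.7 ± 0.600). Each gene differed from its neighbour in this order by more than their SDs. In NXP800 at 24 h *LONP1* stood after *HSPD1* and *HSPA9* with 94.1 ± 11.8, above *YME1L1* (72.7 ± 5.20) and *TRAP1* (71.4 ± 4.89), which did not differ beyond their spread. *HSPD1* was still first with 323 ± 26.8, and *HSPA9* followed with 233 ± 20.4. In DMSO at 24 h *CLPX* (16.3 ± 0.732) and *HTRA2* (16.1 ± 1.63) could not be ordered.

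A further 25 genes of mitochondrial protein import and quality control were listed beside the 9. At 6 h 5 of them rose and 9 fell, where 25.0% of all tested genes rose and 27.8% fell. At 24 h 4 rose and 10 fell, where 27.5% of all tested genes rose and 28.6% fell. In either direction 56.0% of the 25 passed at each time, close to the total shares of all tested genes (52.8% at 6 h and 56.0% at 24 h). Among 8 genes of the mtHSP70 motor, 4 rose at 6 h while the other 4 did not pass. Of all tested genes 52.8% passed at this time and 25.0% rose. At 24 h 3 of the 8 rose and 1 fell, where 56.0% of all tested genes passed and 27.5% rose. The share of motor genes that passed in either direction was thus not above that of all tested genes at either time. *DNAJA3*, an mtHSP70 co-chaperone, went from 0.20 at 6 h (adjusted p = 0.0187, edgeR) to -0.01 at 24 h (adjusted p = 0.949, edgeR). *GRPEL2*, a nucleotide exchange factor of mtHSP70, rose by 1.19 ± 0.06 at 6 h (56.6 ± 1.76 to 129 ± 3.86 CPM, SD, n = 3) and by 0.59 ± 0.07 at 24 h (49.5 ± 0.852 to 74.7 ± 6.11 CPM). Its paralog *GRPEL1* had -0.10 ± 0.06 at 6 h (adjusted p = 0.166, edgeR) and fell by 0.20 at 24 h (adjusted p = 0.0113, edgeR). The ratio of *HSPA9* to *GRPEL1* was 1.75-fold higher in NXP800 at 6 h and 1.63-fold higher at 24 h (exact two-sided permutation test, p = 0.1 each). *HSCB*, an mtHSP70 co-chaperone for iron-sulfur clusters, rose by 0.55 and 0.74, and *TIMM44*, which anchors mtHSP70 at the import channel, by 0.37 and 0.28.

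Of 13 other proteases and peptidases, 1 rose and 5 fell at each time (46.2% passed, against 52.8% of all tested genes at 6 h and 56.0% at 24 h). With the replicate block 4 rose and 5 fell at 6 h, and 2 rose and 6 fell at 24 h. Of all 15979 tested genes, 9953 passed with the block at 6 h (4622 higher) and 10411 at 24 h (5117 higher). *PMPCA*, the alpha subunit of the presequence peptidase, fell by 0.69 at 6 h and 0.46 at 24 h, while its partner *PMPCB* had 0.15 (adjusted p = 0.104, edgeR; 0.0109 with the replicate block) and 0.06 (adjusted p = 0.533, edgeR). *ATP23*, a metallopeptidase of the intermembrane space, fell by 0.76 at 6 h and 0.56 at 24 h. *MIPEP*, an intermediate peptidase of the matrix, fell by 0.26 at 6 h (adjusted p = 0.0118, edgeR) and had -0.18 at 24 h (adjusted p = 0.0709, edgeR; 0.016 with the replicate block). *SPG7*, a subunit of the m-AAA protease, fell by 0.58 at each time, and its partner *AFG3L2* had 0.09 and -0.01 without passing (adjusted p = 0.22 and 0.864, edgeR). *LACTB*, a filament-forming protein of the intermembrane space, rose by 0.55 at 6 h and fell by 0.52 at 24 h, and *IMMP2L*, an inner membrane peptidase, had 0.23 at 6 h (adjusted p = 0.203, edgeR) and rose by 0.84 at 24 h. The disaggregase *CLPB* and the scaffold genes *PHB1*, *PHB2* and *STOML2* all fell at both times, from -0.42 to -0.19 at 6 h and from -0.56 to -0.15 at 24 h. Of all tested genes 27.8% fell at 6 h and 28.6% at 24 h.

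**Figure D4:**
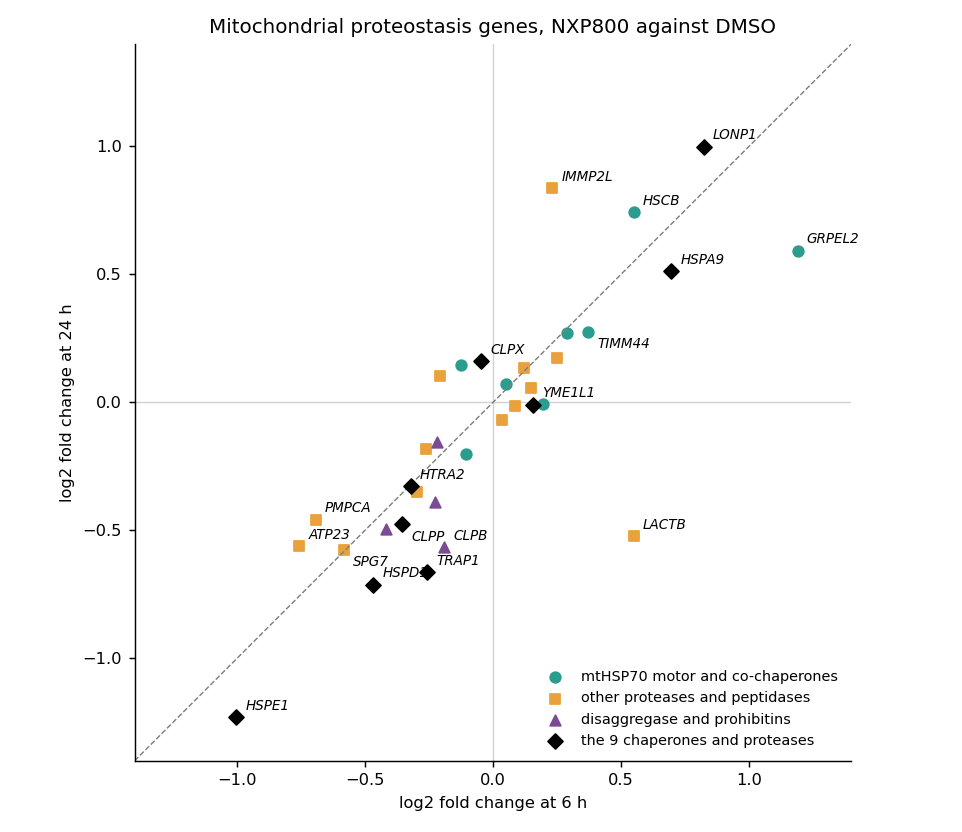
Log2 fold change at 6 h (x axis) and at 24 h (y axis) of the 9 chaperones and proteases (black diamonds) and 25 other mitochondrial proteostasis genes (coloured by list), with the dashed line marking equal change. *LONP1*, *HSPA9*, *GRPEL2* and *HSCB* lie in the upper right, *HSPE1* lies lowest, and *LACTB* is at 0.55 and -0.52.

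Genes that signal mitochondrial stress also moved in both directions. Of 8 listed, 4 rose and 2 fell at 6 h (75.0% passed, against 52.8% of all tested genes), and 5 rose and 2 fell at 24 h (87.5% passed, against 56.0%). *DDIT3*, encoding CHOP, rose by 3.05 and 3.01, *CEBPB* by 2.51 and 2.28, and *ATF4* by 0.66 and 0.51. *DELE1*, which carries the mitochondrial stress signal to the cytosol, rose by 0.40 and 0.34. *ATF5*, a factor known to drive *HSPD1* and *LONP1*, fell by 1.04 at 6 h and 0.89 at 24 h, and *EIF2AK1*, encoding the kinase HRI that DELE1 activates, fell by 0.35 and 0.33. *SSBP1*, a mitochondrial DNA-binding protein, passed at 24 h with 0.23 and not at 6 h (0.04, adjusted p = 0.609, edgeR). *HSF1* had -0.08 and -0.07 (adjusted p = 0.371 and 0.391, edgeR).

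The family counterparts outside mitochondria gave the following values. For HSP70, *HSPA5* of the endoplasmic reticulum rose by 0.66 and 1.06 as *HSPA9* rose, whereas cytosolic *HSPA8* fell by 2.44 and 1.22. For HSP90, *HSP90AA1* fell by 0.73 and 1.29, *HSP90AB1* by 0.33 and 0.68, and *HSP90B1* by 0.26 and 0.28, beside the fall of *TRAP1*. For the chaperonins, *TCP1*, a subunit of the cytosolic ring, had -0.15 at 6 h (adjusted p = 0.0697, edgeR; 0.0163 with the replicate block) and fell by 0.53 at 24 h, beside the fall of *HSPD1*.

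A further list for mitochondrial content held 10 nuclear genes such as *CS* and *VDAC1*, of which 6 fell at each time. Of all tested genes 27.8% fell at 6 h and 28.6% at 24 h. The median of the 10 was -0.24 at 6 h and -0.45 at 24 h. With the replicate block 7 fell at 6 h, *PDHA1* being added, and 8 at 24 h, *TOMM20* and *VDAC2* being added. Among all 15979 tested genes the block raised the number that passed from 8435 to 9953 at 6 h. At 24 h that number went from 8953 to 10411. In the fit without a block *PDHA1*, a subunit of pyruvate dehydrogenase, fell by 0.46 at 24 h and had -0.16 at 6 h (adjusted p = 0.0715, edgeR), and *TOMM20*, an import receptor, fell by 0.25 at 6 h and had -0.11 at 24 h (adjusted p = 0.351, edgeR). Of the 13 protein-coding genes of the mitochondrial genome, 0 passed at either time in edgeR, against 52.8% of all tested genes at 6 h and 56.0% at 24 h. Of these 13, 0 had an unadjusted p below 0.05 and 0 passed in DESeq2, while 3 at 6 h and 2 at 24 h passed with the replicate block. Their spread between libraries was wide, as for *ND1* at 6 h, which had 1496 ± 400 CPM with DMSO but 1330 ± 587 CPM with NXP800 (SD, n = 3). These values are transcript levels, and the number of mitochondria was not measured. The part of content in the changes of the 9 genes was not tested.

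Over the 12 libraries, the genes whose profile lay nearest to that of *HSPD1*, by the root mean square difference in log2 CPM after centring, were *CCDC86* (0.0747), *CACYBP* (0.0808) and *ERLIN1* (0.0813). Nearest to *LONP1* were *CALCOCO1* (0.119), *LDAF1* (0.12) and *KLF3* (0.128). None of the other 8 genes was among these neighbours.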

How the data were processed

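RNA was taken from MNNG/HOS cells after 6 h or 24 h with DMSO or 300 nM NXP800, and mRNA libraries were made with a strand-specific kit and read as paired ends. The authors trimmed reads with fastp 0.20.1, aligned them with STAR 2.7.5a to the hg38 analysis set and counted them with HTSeq 0.12.4 on RefSeq genes, per the submitters' processing notes and the study's methods. The deposited tables hold raw counts, 1 value for each gene symbol. The overlap and strand settings of the counting are not given in the sources used here. Rows for reads on no gene, ambiguous between genes or not unique were kept out of library sizes (2.73 to 8.14%, 2.10 to 2.43% and 1.86 to 3.37% of read pairs).

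Counts were filtered with filterByExpr (15979 of 43236 genes), scaled by TMM and tested with edgeR 4.0.16 (quasi-likelihood test, R 4.3.3) in 1 model of the 4 groups, for NXP800 against DMSO at each time and for the difference of these responses, which share no library. Adjusted p-values are Benjamini-Hochberg over all tested genes, with a threshold of 0.05. CPM use TMM-scaled library sizes, and CPM per kilobase divides by the length of the MANE transcript. Ratios of counts were tested by exact permutation. Start windows came from RefSeq (GRCh38.p14), and exon overlaps from GENCODE on hg38. The fit was tested on simulated data. Alternatives were DESeq2 1.42.0, other scalings and filters, a stricter threshold, the 6 libraries of a time alone, leaving out each library, and a replicate block within each time.

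Libraries of a time with the same replicate number deviated from their group means together (r = 0.16 to 0.33 for each of the pairs, at most 0.06 for different numbers), so the numbers were taken to pair them, from the data rather than from a stated batch. The members and gene lists were chosen with earlier results of these data known. The text names all 9 genes and, of the other lists, those whose call differs between times and up to 4 with the largest changes. It also names partners in a complex, content genes as examples, counterparts and some cell type markers.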

Additional observations from a re-analysis of the deposited data

Results flagged for a closer look

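The response of 14 listed genes differed between the times in edgeR's quasi-likelihood test of the difference without a block, where 25.8% of all tested genes passed. Values are 24 h minus 6 h on the log2 scale, and p-values are Benjamini-Hochberg adjusted over all tested genes. Of the 9 chaperones and proteases, *TRAP1* did so, with -0.405 (adjusted p = 0.00378). Among the other mitochondrial proteostasis genes, *LACTB* had -1.072 (adjusted p = 0.000113), *GRPEL2* -0.597 (adjusted p = 0.00018), *CLPB* -0.374 (adjusted p = 0.0126), *PMPCA* 0.235 (adjusted p = 0.033) and *IMMP2L* 0.606 (adjusted p = 0.0421). Of the genes of mitochondrial content, *CS* had -0.413 (adjusted p = 0.00449), *PDHA1* -0.304 (adjusted p = 0.033), *SDHA* -0.27 (adjusted p = 0.0421) and *ATP5F1A* -0.273 (adjusted p = 0.0475). Of the counterparts outside mitochondria, *HSPA8* had 1.218 (adjusted p = 7.9e-05), *TCP1* -0.384 (adjusted p = 0.007), *HSP90AA1* -0.555 (adjusted p = 0.0136) and *HSP90AB1* -0.357 (adjusted p = 0.049). DMSO levels also differed between the times for some of these genes, as for *LACTB* with 40.7 ± 3.84 CPM at 6 h and 26.7 ± 2.79 CPM at 24 h (SD, n = 3), and the part of this in the differences was not tested. With the replicate block further listed genes passed this test, among them *HSPD1*, *LONP1* and *CLPX* of the 9.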

How the results depend on the processing

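*HSPD1*, *HSPE1*, *HSPA9*, *TRAP1*, *LONP1* and *CLPP* kept their direction and their call at both times under every alternative scaling, filter and tool run and without any single library. The number of the 9 that passed was 6 to 8 at each time over all alternatives, against 7 at 6 h and 8 at 24 h. In the difference of the responses it was 1, and 2 with library sizes alone or with at least 10 counts in every library, where *CLPX* was added. With the replicate block, which pairs libraries of a number, it was 4 (*TRAP1*, *CLPX*, *HSPD1* and *LONP1*), and over all genes the count went from 4129 to 6284. The block changed no other call of the 9 except that of *YME1L1* at 6 h. Library sizes alone gave 2463 higher genes of 4133 in that difference against 1924 of 4129. For *YME1L1* at 24 h the sign turned with library sizes alone (0.08), with no filter (0.009) and with the 6 libraries alone (0.011), and lay between -0.067 and 0.035 without single libraries. For *HTRA2* the difference of the responses, -0.005, became 0.068 with library sizes alone, 0.012 with no filter and 0.0 with at least 10 counts in every library, and lay between -0.151 and 0.08 without single libraries. None of these passed. *CLPX* at 24 h was lost with no filter (adjusted p = 0.0688) and *HTRA2* at 24 h with library sizes alone (adjusted p = 0.0621) or the 6 libraries alone (adjusted p = 0.0525, all edgeR). The cause was not tested. Ratios moved by less than their SD, but neither leaving out 1 of 3 libraries nor pairing by number could move them further. This check therefore says nothing on how steady the ratios are. Adding *HSPE1-MOB4* to *HSPE1* changed nothing since it has 0 counts, so this could not show the part of reads shared by these genes. Adding pseudogene copies was not run since the count tables hold none. The lowest count among the 9 genes was 238 in a library, for *HSPE1*.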
